A study of Mus musculus with 12 samples.

Results

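Nucleoporins and nuclear transport factors were followed at the RNA level in mouse osteoblasts, the bone-forming cells, of young and adult metaphyses and after *c-Myc* induction. Members were chosen by gene name, with earlier results of these data known. The name rule took names that start with Nup and a number, the importin alpha adaptors (*Kpna1* to *Kpna7*) and *Kpnb1*. It also took numbered importins and exportins, transportins, and 13 further genes of the pore and of the Ran cycle. The rule found 56 genes among the 32288 rows of the count table. *Kpna7*, an importin alpha of the egg and early embryo, had 0 counts in all 12 libraries, and *Nup62cl* and *Nup210l* had too few counts to be tested between the ages.

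All mice carried *Osx-CreERT2* and the *mTmG* reporter, so that tamoxifen activated Cre in cells expressing *Osx* (*Sp7*, a master regulator of osteoblasts) and switched them to membrane GFP (mGFP). Cells that were mGFP+ and negative for CD31, CD45 and TER119 were sorted from the metaphyses of distal femurs and proximal tibias. The juvenile group (3 weeks of age) and the adult group (8 weeks) held 4 libraries each, every one a pool of 2 male mice without a further allele. These mice were given tamoxifen on 3 days and were taken 2 days after it. The *c-Myc* group (2 libraries) also carried *LSL-tTA* and *Col1a1::TetO–c-Myc*, in which Cre permits the tetracycline-repressed activator that drives *c-Myc*, and the *c-Myc* + *R172H* group (2 libraries) had *Trp53-LSL-R172H* as well, a mutant p53 allele that Cre also turns on. Tet-OFF mice were held on doxycycline or tetracycline in drinking water before induction. They were given tamoxifen on 2 days, and cells of both sexes were taken 7 days after it. The titles of these libraries give 3 weeks and the dissection notes 5 weeks, with 5 mm of bone kept below the growth plate where the controls kept 2 mm. Genotype, dissection age, length of bone, drug schedule and sex therefore all changed between the juvenile and the *c-Myc* groups, and their parts in a difference cannot be told apart. Nothing in the labels says that the 2 libraries of a group came from separate litters, so p-values measure the spread between these libraries.

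The nuclear pore complex is a channel through the nuclear envelope built from stacked rings of nucleoporins. Y-shaped complexes form its outer rings, an inner ring lines the pore, membrane proteins anchor it, and flexible repeats fill the channel. Filaments extend from its cytoplasmic face, and others form a basket on the nuclear side. Importins and exportins, most of them of the importin beta family, carry cargo through it, and the small GTPase Ran sets the direction, being loaded with GTP by *Rcc1* in the nucleus and made to hydrolyse it by *Rangap1* in the cytoplasm. MYC is a transcription factor that binds the sequence CACGTG, the E-box, together with MAX.

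Total counts ran from 9066154 to 15684412 per library, and 3 counts, taken as the floor of detection, corresponded to 0.140 to 0.411 CPM (counts scaled to a common library size with TMM factors over all libraries). The induced gene itself, *Myc*, stood at 39.2 to 51.8 CPM in the 8 juvenile and adult libraries and at 638 to 766 CPM in the 4 libraries with *c-Myc*. The osteoblast genes *Sp7* (122 CPM or more) and *Runx2* were present in every library. Summed levels of 10 osteoblast markers, mostly *Col1a1* and *Col1a2*, ran from 590486 to 861582 CPM in juvenile and from 106455 to 139550 CPM in *c-Myc* libraries. *Sp7* was at 225 to 242 CPM in juvenile and at 125 and 154 CPM in *c-Myc* libraries. Those of 11 chondrocyte markers ran from 18271 to 35560 and from 1909 to 2147 CPM, of which *Col11a2* made up 1343 and 1795 CPM in *c-Myc* libraries. Of the markers of gated-out cells, *Ptprc* (CD45) and *Pecam1* (CD31) reached at most 0.403 and 0.661 CPM. Summed erythroid markers (9 genes) were 7.81 to 20.7 CPM in juvenile and 103 to 108 CPM in *c-Myc* libraries, of which *Tfrc*, the transferrin receptor of dividing cells too, made up 102 CPM or more. Summed endothelial markers (7 genes) were at most 0.512 CPM in juvenile and 6.81 to 8.57 CPM in *c-Myc* libraries, mostly *Egfl7*, and 11 myeloid markers were 1.59 to 5.62 and 12.5 to 13.5 CPM. *Xist*, made from the inactive X chromosome, was at 237 and 217 CPM in replicate 2 of the *c-Myc* and *c-Myc* + *R172H* groups and at 1.23 CPM or less in every other library.

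How nuclear transport genes stood in *c-Myc*-induced osteoblasts against normal juvenile *Osx*+ osteoblasts was examined first. They were higher almost throughout: 51 of the 55 members tested rose, 1 fell (*Sec13*) and 3 did not pass the test (*Nup35*, *Nup210l* and *Tnpo2*) at an adjusted p below 0.05. Of all 12588 genes tested, 28.4% were called higher and 25.0% lower, 53.4% together. The median log2 fold change of the members was 1.42, beside 0.037 for all genes tested. With a log2 fold change of at least 1 also asked for, 39 members were higher and 0 lower, against 18.4% and 16.0% of all genes. Libraries of the 2 groups did not overlap for 53 members that were higher (37.2% of all genes) and for 1 that was lower (27.6%), and overlapped for *Nup210l*. Scaling by library totals in place of TMM moved the median of all genes to 0.87 and that of the members to 2.24, and 53 members were then higher and 0 lower, since *Sec13* turned to 0.22 (adjusted p = 0.29). The split over all genes moved with it, from 3577 higher and 3149 lower to 6803 and 1115. The level of a member in bulk RNA does not say whether more cells expressed it or each cell held more of it.

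**Figure D1:**
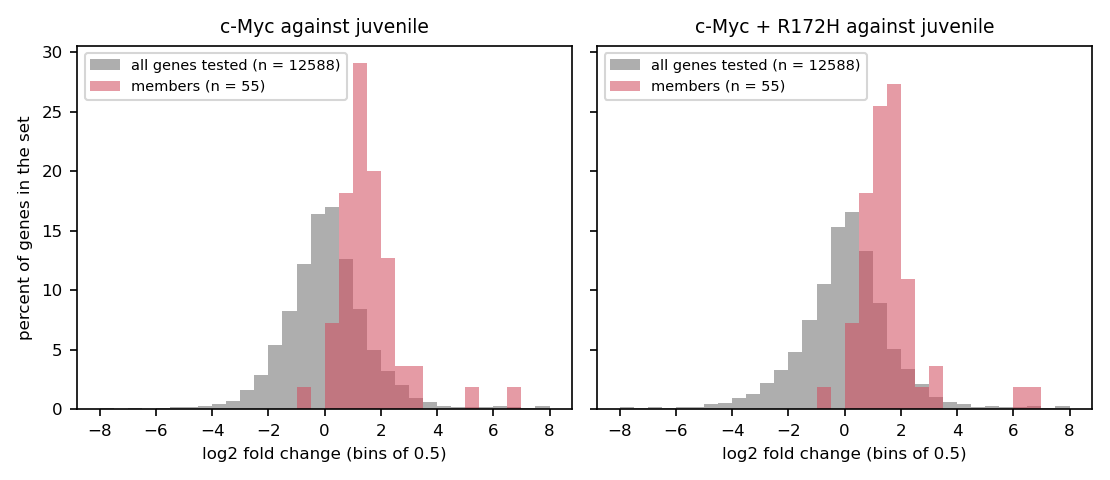
Percent of genes per bin of 0.5 log2 fold change against juvenile, for all 12588 genes tested (grey) and the 55 members (red), in *c-Myc* (left) and *c-Myc* + *R172H* osteoblasts (right); both panels share the 4 juvenile libraries. Members lie to the right of the bulk of genes with medians of 1.42 and 1.47; *Nup210* is the bar between 6.5 and 7, and the next bar to its left in each panel is *Nup62cl*, whose fitted value is no measure of size because its juvenile counts were all 0.

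Dividing cells build new pores, and genes of the cell cycle moved in the same direction. All 20 genes of a proliferation list rose in *c-Myc* osteoblasts, by a median of 2.78 on the log2 scale, with a summed level of 155 to 236 CPM in juvenile and 1248 to 1391 CPM in *c-Myc* libraries. *Mki67*, the Ki-67 antigen, was at 25.3 to 44.1 CPM in juvenile libraries and at 169 and 171 CPM in *c-Myc* libraries. The row *Gm26917* alone held 90067 to 111176 CPM in juvenile and 206153 and 233279 CPM in *c-Myc* libraries. With it, *Col1a1* and *Col1a2* left out of the fit the same 51 members were called higher, joined by *Tnpo2* (adjusted p = 0.0465). Of all 12606 genes tested in that fit 3587 were called higher. The reporter of unswitched cells, tdTomato, was at 0.685 to 8.59 CPM in juvenile and at 35.3 and 33.3 CPM in *c-Myc* libraries. The *c-Myc* allele of the induced mice also carries mCherry, another red reporter. Whether reads of mCherry were counted as tdTomato was not tested. The part of proliferation, of the marker genes above, of unswitched cells or of sex in the members' differences was not tested.

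*Nup210*, a glycoprotein that spans the pore membrane and whose amount differs widely between cell types, changed more than any other member with counts in both groups. It had been singled out with earlier results of these data known, so its p-values and ranks are descriptions and no fresh test. Its gene lies on the minus strand at chr6:91013068-91116829 (mm10), with 43 exon blocks and no other annotated gene overlapping it. Juvenile libraries held 24, 22, 10 and 5 counts of it, or 2.17, 2.25, 1.37 and 0.612 CPM, and adult libraries 2.31, 1.78, 1.53 and 3.06 CPM. It reached 170.7 and 160.3 CPM in *c-Myc* libraries and 169.8 and 156.0 CPM in *c-Myc* + *R172H* libraries. The 4 induced libraries lay far above all 8 others. The difference to juvenile was 94.4-fold (log2 fold change 6.56 ± 0.21 SE, adjusted p = 2.19e-09). By size of its fold change it ranked 65th of the 12588 genes. Among the 6946 genes with a mean of at least 10 CPM over all 12 libraries it ranked 3rd. It passed that filter only through the 4 induced libraries, its juvenile and adult means being 1.60 and 2.17 CPM, so the 3rd rank depends on the filter.

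Other membrane proteins of the pore moved less. *Ndc1*, which anchors the pore scaffold, was at 4.16, 5.84, 2.33 and 5.88 CPM in juvenile libraries and at 53.0 and 43.0 CPM in *c-Myc* libraries (3.32 ± 0.23 on the log2 scale, adjusted p = 2.05e-07). *Pom121* went from 46.3, 47.9, 31.4 and 37.8 CPM to 76.4 and 79.1 CPM (0.86 ± 0.15, adjusted p = 0.000347). *Nup210l*, a germline paralog of *Nup210*, had 0 to 5 counts in juvenile and 10 and 14 counts in *c-Myc* libraries, a difference that the test did not call (adjusted p = 0.46). Per kilobase of exon, the level of *Nup210* was 0.00862 to 0.0250 of that of *Pom121* in juvenile libraries, and 1.08 and 1.19 times it in *c-Myc* libraries. Relative to *Ndc1* it was 0.0490 to 0.277 in juvenile libraries and 1.51 and 1.75 in *c-Myc* libraries. Among the 56 members *Nup210* ranked 53rd per kilobase in juvenile and adult osteoblasts and 18th in both induced groups.

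**Figure D2:**
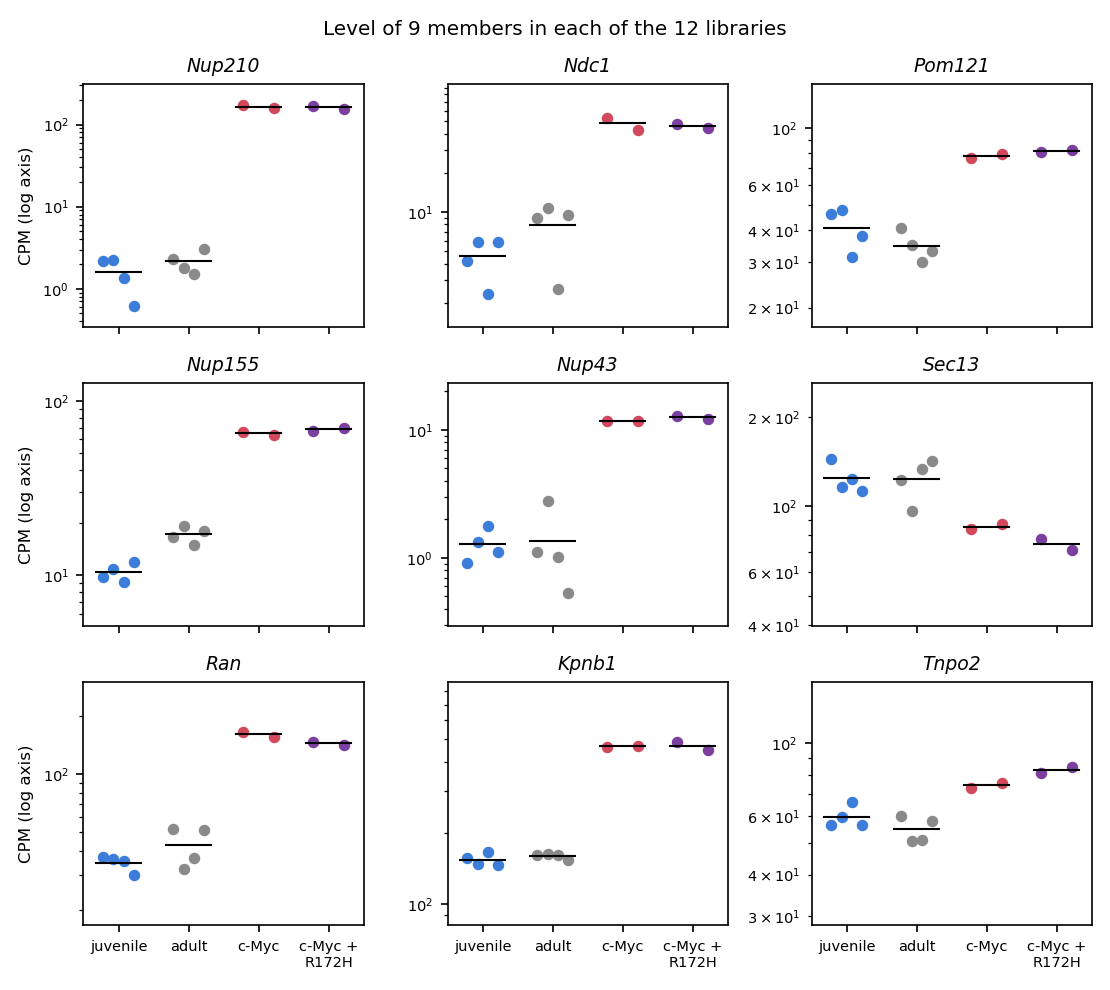
CPM (log axis, its range set for each panel) of 9 members in each library, with 1 point per library and a bar at the group mean (n = 4 juvenile, 4 adult, 2 *c-Myc*, 2 *c-Myc* + *R172H*). *Nup210* separates the induced from the other libraries by far the widest margin of these genes, *Sec13* is lower in the induced libraries (under library-total scaling it is not), and *Tnpo2* differs least.

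Because *c-Myc* was the induced factor, the promoters of the members were searched for CACGTG, which reads the same on both strands. RefSeq windows (GRCm38.p6, 250 bases before to 50 bases after a start) were at hand for 45 of the 56 members, and 8 of these, 17.8%, held the motif: *Ipo4*, *Ipo7*, *Nup188*, *Nup54*, *Nup93*, *Ran*, *Ranbp2* and *Tnpo2*. The share was 11.99% among 9808 tested genes with a window and 8.09% among all 27025 genes with one. The median log2 fold change was 1.53 for the 8 members with the motif, of which 7 were called. It was 1.42 for the 37 without it, of which 36 were called (*Sec13* as lower) and *Kpna7* was not tested. The 250 bases before the start are shown for 4 members, 5′ to 3′ on the strand of the gene with CACGTG in capitals: *Nup210*, which moved most and has none, *Nup188* and *Ran*, which rose and have 2 and 1, and *Tnpo2*, which has 2 and was not called.
*Nup210*, chr6:91116827-91117076, minus strand: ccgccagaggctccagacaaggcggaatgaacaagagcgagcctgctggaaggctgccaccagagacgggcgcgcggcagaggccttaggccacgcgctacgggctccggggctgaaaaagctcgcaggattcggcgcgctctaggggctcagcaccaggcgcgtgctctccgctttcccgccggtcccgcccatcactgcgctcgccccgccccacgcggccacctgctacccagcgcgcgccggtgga
*Nup188*, chr2:30286166-30286415, plus strand: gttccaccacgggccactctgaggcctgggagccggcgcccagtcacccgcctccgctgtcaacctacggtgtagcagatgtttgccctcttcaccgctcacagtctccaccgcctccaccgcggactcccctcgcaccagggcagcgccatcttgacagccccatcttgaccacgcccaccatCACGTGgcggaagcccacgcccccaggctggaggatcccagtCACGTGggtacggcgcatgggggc
*Ran*, chr5:129019906-129020155, plus strand: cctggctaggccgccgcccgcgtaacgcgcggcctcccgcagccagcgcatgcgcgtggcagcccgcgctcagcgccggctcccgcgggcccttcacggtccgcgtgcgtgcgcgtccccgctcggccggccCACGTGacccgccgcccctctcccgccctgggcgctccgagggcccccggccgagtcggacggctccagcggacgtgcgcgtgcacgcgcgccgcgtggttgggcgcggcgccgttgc
*Tnpo2*, chr8:85036643-85036892, plus strand: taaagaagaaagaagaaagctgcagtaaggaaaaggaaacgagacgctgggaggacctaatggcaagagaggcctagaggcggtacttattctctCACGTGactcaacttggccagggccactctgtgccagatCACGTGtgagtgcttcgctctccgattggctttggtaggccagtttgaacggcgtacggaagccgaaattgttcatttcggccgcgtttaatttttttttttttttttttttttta
These 4 members were picked for display, and no sequence other than CACGTG was searched for. Whether the motif had a part in the differences was not tested. A match in these windows, or the lack of one, is a description of letters and says nothing of whether MYC was bound.

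In the Y complex, the scaffold of the outer rings, 7 of 8 subunits rose and *Sec13* fell, the median being 1.65 on the log2 scale. *Nup43*, a peripheral subunit, was at 0.905, 1.33, 1.78 and 1.10 CPM in juvenile libraries and at 11.8 and 11.9 CPM in *c-Myc* libraries, 8.95-fold higher (3.16 ± 0.29 SE on the log2 scale, adjusted p = 1.68e-06). *Nup37*, which sits beside *Nup160* in the complex, rose by 2.58 ± 0.30, *Nup85* by 2.33 ± 0.15 and *Nup133*, *Nup160* and *Nup107* by 1.86, 1.43 and 1.40. The largest fold changes thus belonged to *Nup43* and *Nup37*, the members of lowest level in the complex, while *Seh1l* rose by 1.27 ± 0.14.

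*Sec13* serves 2 assemblies, the Y complex and the COPII coat, which buds vesicles of secreted protein such as procollagen from the endoplasmic reticulum. It was at 144, 116, 124 and 113 CPM in juvenile libraries and at 83.9 and 87.1 CPM in *c-Myc* libraries, so that all of the latter were below all of the former, and it fell by 0.61 ± 0.12 (SE) on the log2 scale (adjusted p = 0.000740). Under library-total scaling it was 0.22, still far under the members' median of 2.24. The ratio of *Sec13* to *Seh1l*, its relative in the Y complex, was 9.03 to 10.6 per kilobase in juvenile libraries and 2.62 and 2.75 in *c-Myc* libraries. Genes of the COPII coat were looked up after *Sec13* had been seen, so they are described without a test. *Sec31a*, which pairs with *Sec13* in the coat, was at 516 to 541 CPM in juvenile and at 292 and 287 CPM in *c-Myc* libraries. *Sec24d*, a cargo adaptor, was at 286 to 322 and at 111 and 115 CPM. Over the 9 coat genes the log2 fold changes ran from -1.48 to 0.09 with a median of -0.64. Under library totals *Sec31a* stood at -0.094 and *Sec24d* at -0.65.

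In the inner ring, *Nup155*, *Nup205*, *Nup93* and *Nup188* rose and *Nup35* did not pass the test. *Nup155*, which joins the ring to the membrane, was at 9.77, 10.9, 9.18 and 11.9 CPM in juvenile libraries and at 66.4 and 63.5 CPM in *c-Myc* libraries (2.57 ± 0.13, adjusted p = 1.87e-08). *Nup205*, one of the large scaffold proteins, was at 33.4, 29.0, 29.3 and 34.3 CPM and then at 154 and 145 CPM (2.18 ± 0.10, adjusted p = 1.47e-08). For *Nup35* the values were 1.99, 2.46, 2.06 and 1.47 CPM and 4.43 and 2.65 CPM, with a log2 fold change of 0.76 (95% interval -0.18 to 1.70, adjusted p = 0.16). *Gm4353* carries a stretch of 1547 bases that is 99.6% identical to *Nup35*, so reads from there may have no unique position and its level is uncertain. *Nup188* shares 285 bases with the overlapping *Gm28038*. In the central channel, whose phenylalanine-glycine repeats form the barrier, *Nup62* went from 21.3, 17.1, 18.0 and 26.7 CPM to 68.9 and 66.8 CPM (1.64 ± 0.15, adjusted p = 2.22e-06) and *Nup54*, which shares a stretch of 1254 near-identical bases with *Gm15790*, rose by 1.42 ± 0.17. *Nup62cl*, an X-linked relative of *Nup62*, had 0 counts in all 8 juvenile and adult libraries, 3 and 9 in *c-Myc* and 14 and 17 in *c-Myc* + *R172H* libraries. Its mean in *c-Myc* libraries, 0.329 CPM, was under the floor of 0.411 CPM, so no fold is given. With only the *c-Myc* and juvenile libraries fitted it was not called. The edgeR fit that also held the *c-Myc* + *R172H* libraries called it (adjusted p = 0.0472), so it is counted among the 51. That call was lost with DESeq2 (adjusted p = 0.079), the replicate block (0.084), all groups in 1 fit (0.067) and each library left out in turn (0.053 to 0.25). In *c-Myc* + *R172H* libraries it was at least 1.85-fold higher than juvenile, taking the highest floor of 3 counts in a juvenile library.

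Nucleoporins of the cytoplasmic face and of mRNA export rose in 6 of 6 cases, with the smallest median among the pore parts, 0.99 on the log2 scale. *Rae1*, an mRNA export factor, went from 18.9, 13.7, 15.8 and 11.4 CPM to 46.3 and 45.1 CPM (1.54 ± 0.17, adjusted p = 9.43e-06). *Ranbp2*, the large SUMO ligase of the cytoplasmic filaments, was already high at 104, 102, 96.6 and 97.2 CPM and stood at 124 and 126 CPM after induction (0.26 ± 0.087, adjusted p = 0.0251). That small difference lost its call when either *c-Myc* library was left out (adjusted p = 0.096 and 0.15) and when *c-Myc* + *R172H* replicate 1 was (0.051). In the nuclear basket, *Nup153* rose by 1.42 ± 0.12 (43.0, 40.8, 32.9 and 35.5 CPM against 106 and 108 CPM), *Nup50* by 1.11 ± 0.18, and *Tpr*, the long coiled-coil protein of the basket filaments, by 0.47 ± 0.10 (103, 94.6, 87.7 and 111 CPM against 152 and 136 CPM).

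The Ran cycle rose in all 4 members, with a median of 2.02. *Ran* itself went from 37.4, 36.7, 35.5 and 30.0 CPM to 165 and 155 CPM (4.37-fold, 2.13 ± 0.10, adjusted p = 1.87e-08). *Rangap1*, its GTPase activator, went from 31.5, 26.1, 18.0 and 23.0 CPM to 139.8 and 131 CPM (5.21-fold, 2.38 ± 0.16, adjusted p = 1.44e-07). *Rcc1*, the exchange factor on chromatin, rose by 1.90 ± 0.13 and *Ranbp1*, which helps strip Ran from exported complexes, by 1.44 ± 0.11. *Rcc1* overlaps *Snhg3*, a host gene of small nucleolar RNAs, on the same strand with 111 bases of shared sequence, *Ranbp1* overlaps *Gm49776* with 283, and *Gm13461* holds 117 bases 98.3% identical to *Ran*, so the counts of all 3 are uncertain.

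Importin alpha proteins recognise the classical nuclear localisation signal and hand their cargo to *Kpnb1*. All 5 that were detected rose, by unequal amounts. *Kpna2*, the form of dividing cells, went from 5.97, 8.81, 7.67 and 5.76 CPM to 28.3 and 27.0 CPM (1.91 ± 0.19, adjusted p = 3.60e-06), though *Gm10184* and *Gm10259* hold near-identical copies (99.9% and 99.8% over 1968 and 1590 bases) that may cost it reads. *Kpna6* went from 38.2, 40.7, 43.4 and 43.1 CPM to 56.9 and 60.2 CPM (0.44 ± 0.11, adjusted p = 0.00426). Without *c-Myc* replicate 2 the call of *Kpna6* was lost (adjusted p = 0.067), as was that of *Kpna4* (0.11), and without *c-Myc* replicate 1 those of *Kpna1* (0.067) and *Kpna4* (0.072). *Kpna3* rose by 1.39 ± 0.13.

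Of the 11 importers of the importin beta family, 10 rose. *Kpnb1*, importin beta itself, had the highest level per kilobase of all members in *c-Myc* osteoblasts and went from 156, 147, 165 and 146 CPM to 464 and 466 CPM (1.53 ± 0.081, adjusted p = 2.83e-08). *Ipo5*, an importer of ribosomal proteins and histones, moved most, from 74.9, 65.8, 55.5 and 71.1 CPM to 312 and 288 CPM (2.10 ± 0.11, adjusted p = 2.69e-08). *Ipo11* and *Ipo7* rose by 1.91 and 1.79, and *Ipo13*, *Ipo4*, *Ipo9* and *Ipo8* by 0.68 to 1.00. *Ipo4* shares 2583 bases with *Gm49378*, which overlaps it on the same strand, so its count and rank are uncertain. *Tnpo2*, a transportin of RNA-binding proteins, was at 56.5, 59.6, 66.3 and 56.6 CPM in juvenile and at 73.2 and 75.8 CPM in *c-Myc* libraries. These did not overlap, yet the difference did not pass the test (0.26 ± 0.10, adjusted p = 0.0526), while its paralog *Tnpo1* rose by 1.35 ± 0.13. Leaving out juvenile replicate 3, the highest of the 4, brought *Tnpo2* to an adjusted p of 0.016.

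All 6 exportins rose. *Xpo4*, an exportin of translation factor eIF5A, went from 19.8, 19.6, 13.7 and 16.7 CPM to 85.7 and 86.6 CPM (2.23 ± 0.14, adjusted p = 8.20e-08), with *Gm17873* holding 576 bases 99.1% identical to it and *Gm49361* overlapping it on the same strand. *Cse1l*, which returns importin alpha to the cytoplasm, rose by 2.16 ± 0.13. *Xpo1* (CRM1), the exportin of leucine-rich export signals, went from 33.5, 27.7, 29.2 and 22.0 CPM to 117 and 114 CPM (1.97 ± 0.13, adjusted p = 1.60e-07). *Xpo5*, the exportin of pre-microRNAs, rose by 1.13, *Xpo7* by 1.10 and *Xpo6*, the exportin of actin, by 0.92.

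**Figure D3:**
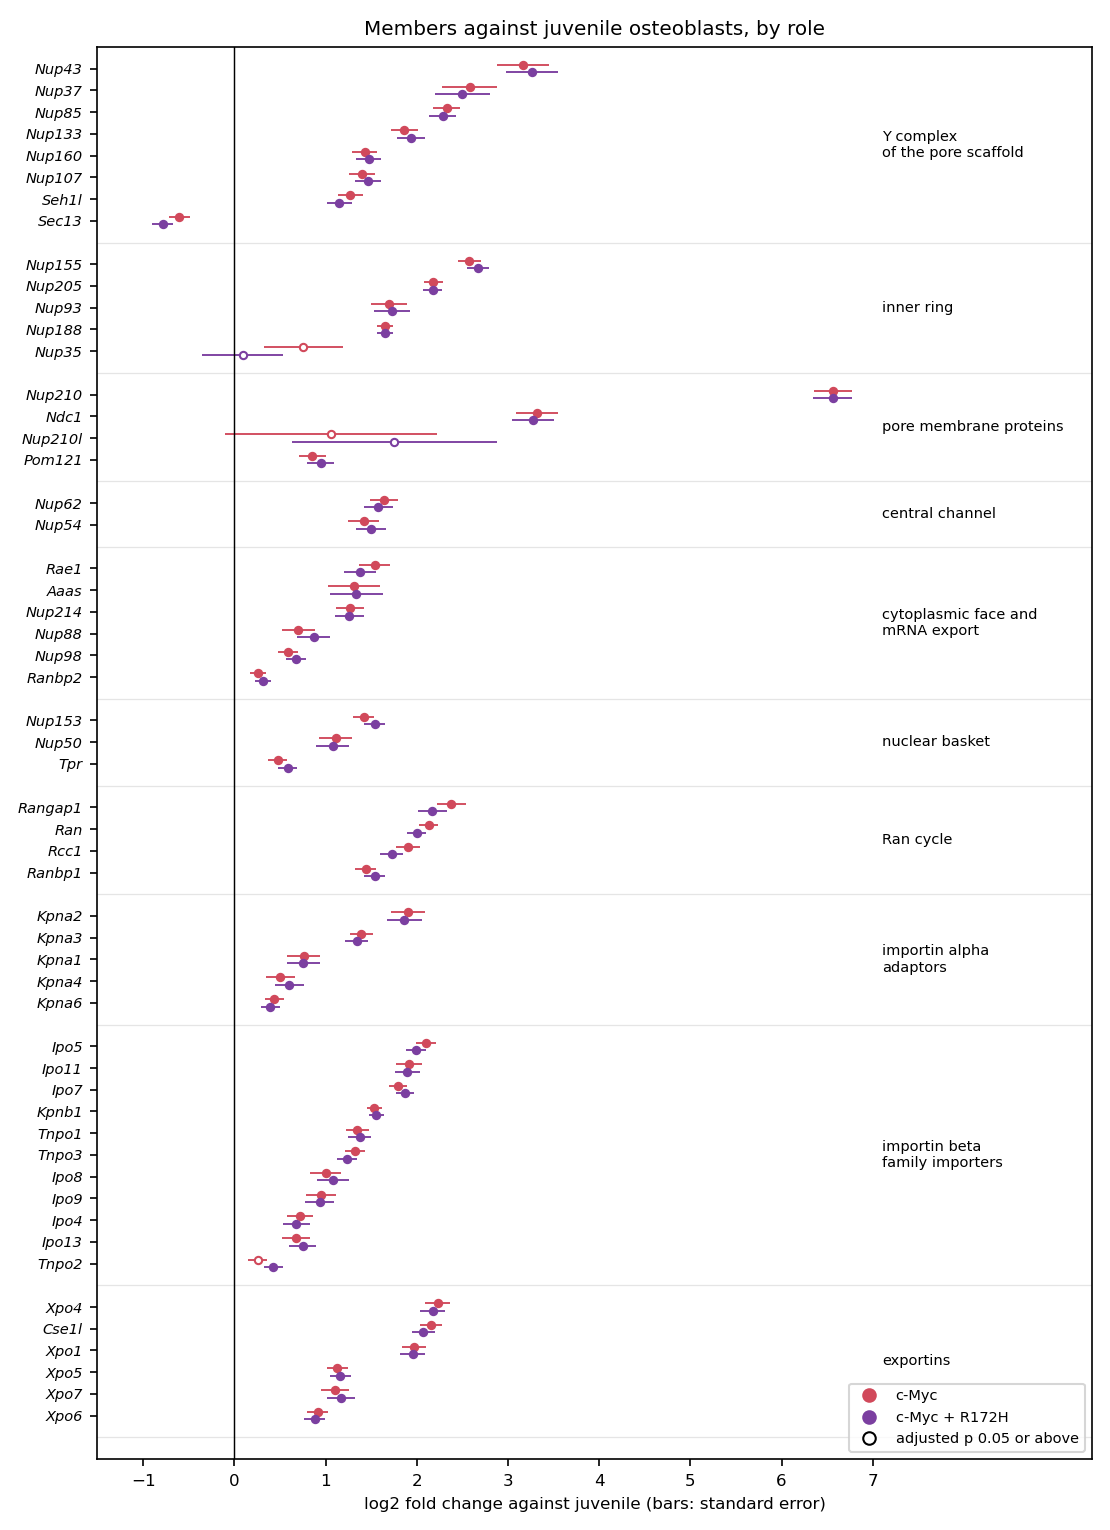
Log2 fold change against juvenile of 54 members by role, with *c-Myc* in red and *c-Myc* + *R172H* in purple; bars are standard errors, open circles did not pass an adjusted p of 0.05, and *Nup62cl* is not drawn. Both sets share the juvenile libraries; *Nup210* lies at 6.56 in both, and *Sec13* is the member to the left of 0, a direction that turns under library-total scaling.

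*c-Myc* + *R172H* osteoblasts were compared with the same juvenile libraries, so the 2 sets of fold changes share their controls. Here 52 of 55 members rose, *Sec13* fell, and *Nup35* and *Nup210l* did not pass the test, where 56.7% of all genes were called, 30.4% higher and 26.3% lower. Their median log2 fold change was 1.47, beside 0.076 for all genes tested. *Nup210* was 94.2-fold higher (6.56 ± 0.21, adjusted p = 8.04e-10), *Ndc1* 9.69-fold and *Nup43* 9.62-fold. *Sec13* was at 77.7 and 71.3 CPM (-0.78 ± 0.12, adjusted p = 9.70e-05, and 0.25 with an adjusted p of 0.20 under library totals). *Tnpo2*, at 80.9 and 84.8 CPM, passed here (0.43 ± 0.10, adjusted p = 0.00320) but not without *c-Myc* + *R172H* replicate 2 (0.36, adjusted p = 0.070). *Ranbp2* (0.32 ± 0.087, adjusted p = 0.00754) and *Kpna6* (0.40 ± 0.11, adjusted p = 0.00748) lost their calls without either library of the group, with adjusted p of 0.14 and 0.058 for *Ranbp2* and of 0.052 and 0.14 for *Kpna6*. *Kpna1* and *Kpna4* lost theirs without *c-Myc* + *R172H* replicate 1 (adjusted p = 0.065 and 0.062). *Nup62cl* lost its call without replicate 1 or 2 (adjusted p = 0.053 and 0.074).

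The *c-Myc* + *R172H* libraries, with mutant p53 as well, were then compared with the *c-Myc* libraries, which were alike in age, dissection and induction. None of the 55 members was called by edgeR (0.469% of all genes were), 0 had an unadjusted p below 0.05, and DESeq2 called 0 (201 of all 19021 genes). *Nup210* was at 169.8 and 156.0 CPM beside 170.7 and 160.3 CPM, a log2 fold change of -0.0022 with a 95% interval from -0.40 to 0.40. The members with the smallest p were *Tnpo2* (0.17, interval -0.083 to 0.43), *Sec13* (-0.18, interval -0.46 to 0.10) and *Nup35* (-0.67, interval -1.75 to 0.41), each with an adjusted p of 1.0 by edgeR. The 95% interval stayed within 0.5 log2 units of no change for 40 members and within 1 for 52. With 2 libraries a group, 11 members had libraries that did not overlap and were higher (18.6% of all genes) and 11 lower (26.3%), against 44.9% of all genes in either direction. The 20 proliferation genes were called 0 times as well. The edgeR results above took their spread in part from the juvenile libraries. With only the 2 induced groups fitted, edgeR called 0 of the 55 members and 629 of all 12170 genes. In that fit 6 members had an unadjusted p below 0.05.

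The juvenile and adult groups were compared to see how the genes differed with age in normal *Osx*+ osteoblasts. Only *Nup155* of the 53 members tested was called, lower in juvenile than in adult osteoblasts, where 5.12% of all 11345 genes were called, 1.89% higher and 3.23% lower. It was at 9.77, 10.9, 9.18 and 11.9 CPM in juvenile and at 16.6, 19.2, 14.8 and 17.9 CPM in adult libraries. The 2 ages did not overlap, and the difference came to -0.72 ± 0.20 on the log2 scale (adjusted p = 0.0448), but leaving out any single library raised the adjusted p to between 0.053 and 0.11. The next in order of p, neither of them called, were *Ipo8*, at 25.9, 22.6, 18.4 and 15.7 CPM and at 26.1, 29.5, 28.9 and 32.2 CPM (-0.50 ± 0.18, adjusted p = 0.11), and *Seh1l*, at 18.5, 15.3, 15.1 and 16.2 CPM and at 28.9, 29.8, 17.8 and 19.5 CPM (-0.57 ± 0.20, adjusted p = 0.11). *Nup210* was at or below 3.06 CPM at both ages (-0.44, interval -1.72 to 0.84, adjusted p = 0.76), so that a difference of the size seen after *c-Myc* lay outside its interval. Cell-type markers moved with age too. Summed chondrocyte markers were at 18271 to 35560 CPM in juvenile and 43245 to 136979 CPM in adult libraries without overlap (median log2 fold change -1.89, 1 of 11 called lower in juvenile), and 3 of 10 osteoblast markers were called higher in juvenile. Their part in the difference of *Nup155* was not tested. The median of the 53 members was -0.0040. Libraries of the 2 ages did not overlap for 1 member that was higher in juvenile (*Rcc1*) and 3 that were lower (*Nup155*, *Ipo8* and *Kpna6*), 4 in all, where 12.9% of all genes did not overlap, 6.16% being higher and 6.79% lower. The interval lay within 0.5 log2 units of no change for 23 members and within 1 for 46.

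**Figure D4:**
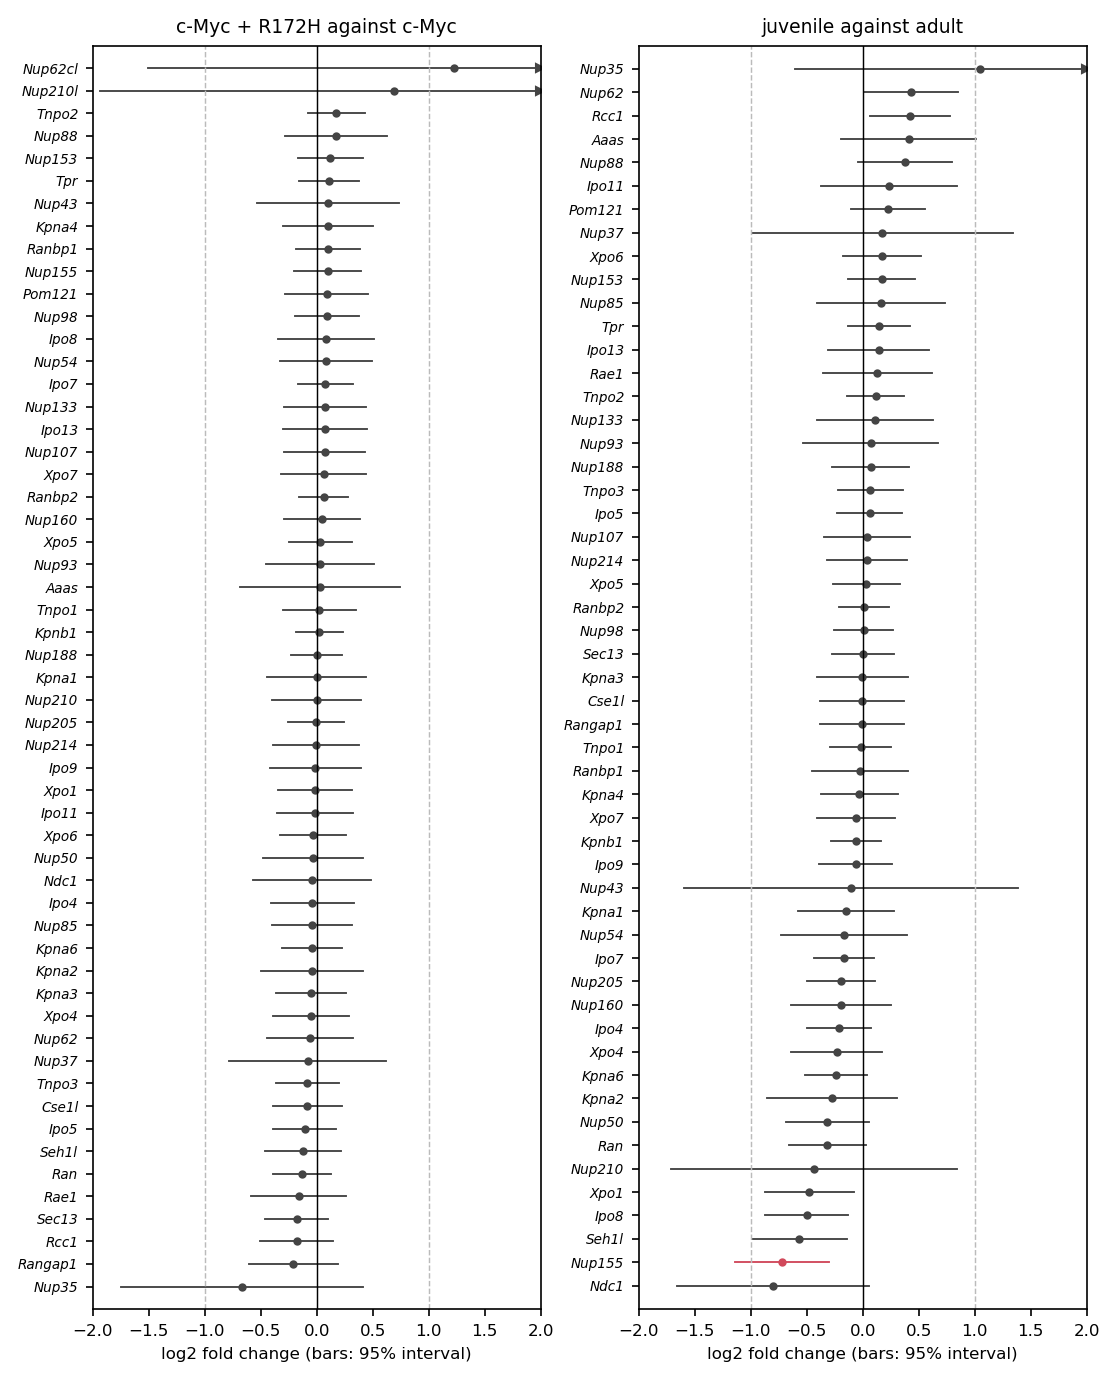
Log2 fold change (points) with its 95% interval (bars) for each tested member, sorted by size, in *c-Myc* + *R172H* against *c-Myc* (left, 55 members) and juvenile against adult (right, 53 members); dashed lines mark 1 log2 unit, arrowheads an interval that runs past the axis, and red an adjusted p below 0.05. Points cluster about 0 in both panels, and *Nup155* in the right panel is the one member called.

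Per kilobase of exon, so that genes can be compared, *Sec13* was the most abundant member in juvenile osteoblasts at 39.0 ± 4.35 CPM per kb (SD, n = 4), ahead of *Kpnb1* at 23.3 ± 1.33. In *c-Myc* osteoblasts *Kpnb1* came first at 70.6 ± 0.11 CPM per kb (SD, n = 2), followed by *Ran* at 60.5 ± 2.75, *Ipo5* at 50.0 ± 2.80 and *Ranbp1* at 49.5 ± 1.63. The last pair do not differ beyond their spread, and *Sec13* ranked 7th at 26.8 ± 0.70. Importin beta family and Ran cycle genes already held ranks 2 to 7 in juvenile osteoblasts, with *Ranbp1* 3rd at 17.4 ± 1.79 CPM per kb, *Ipo4* 4th at 13.3 ± 2.44 and *Ran* 5th at 13.2 ± 1.27, of which the last pair do not differ beyond their spread.

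Other genes of nuclear transport lay outside the name rule. Of 19 such genes 12 rose, 0 fell and 7 did not pass the test in *c-Myc* against juvenile, with a median of 0.78. Of all genes tested, 28.4% were called higher and 25.0% lower there. *Rangrf*, a Ran-binding release factor, was at 1.63, 2.05, 1.92 and 0.490 CPM in juvenile and at 25.1 and 24.9 CPM in *c-Myc* libraries (3.95 ± 0.30, adjusted p = 3.66e-07). *Xpot*, the exportin of tRNA, was the most abundant and rose by 0.59 ± 0.092, and *Nxf1*, the general mRNA exporter, by 0.78 ± 0.12. *Nupl2*, a nucleoporin listed under an older name, was at 3.97 to 4.81 CPM in juvenile and 4.95 and 4.6 CPM in *c-Myc* libraries, and was not called (adjusted p = 0.85). Of 14 genes of the nuclear lamina and envelope 8 rose and 3 fell, beside the same 28.4% and 25.0% of all genes. *Lmnb1*, a B-type lamin, rose from 20.9, 15.0, 13.2 and 13.7 CPM to 166 and 158 CPM (3.29 ± 0.15, adjusted p = 1.39e-08) and *Lmna*, the A-type lamin and the most abundant of the list, by 0.74 ± 0.088, while *Sun2*, which links the lamina to the cytoskeleton, fell by 0.85 ± 0.13 (-0.0060 under library totals, adjusted p = 0.98). Under that scaling neither of the other 2 genes that had fallen, *Sun1* and *Tor1aip1*, kept its direction (0.29 and 0.15).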

How the data were processed

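Sequencing was 86-base single-end on total RNA libraries made with a directional kit. According to the methods and the submitters' processing notes, the authors removed adaptors (cutadapt 4.6), mapped the reads to the mm10 assembly (STAR 2.7.11a) and assigned those with a unique position to genes (HTSeq 2.0.5). The deposited values are raw counts per gene in 12 libraries. The strand setting of the counting is not given in the sources used here, so reads of the 27 members that overlap an annotated gene on the opposite strand may include that gene's. On their own strand 21 members overlap a gene, which no strand setting separates, and unique mapping lowers counts of genes with near-identical copies.

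Genes were tested with edgeR (4.0.16, R 4.3.3) on the counts by robust quasi-likelihood F tests, with TMM factors, filterByExpr and Benjamini-Hochberg adjustment over all genes tested, and called at an adjusted p below 0.05. The juvenile libraries and those of both induced groups (8 in all) shared 1 fit, and the juvenile and adult libraries (8) another. The script was tested on simulated counts. Replicates differed beyond sampling noise (chi-square per degree of freedom 5.45 to 136). CPM used TMM factors over all libraries, and lengths and positions GENCODE M21 (GRCm38, the same assembly as mm10). A library floor is 3 counts and covers counting error only. Genes named were, in each of 10 roles, the member with the largest fold change and that with the highest level, members against the common direction or not called, and *Nup210*; in the last 2 comparisons those called or of smallest p. Other members were named to complete a role, after their values were seen. Members and lists were chosen with earlier results of these data known. Alternatives were other scaling, filters, DESeq2 (1.42.0), other sample sets, a replicate block and leaving out each library.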

Additional observations from a re-analysis of the deposited data

Results flagged for a closer look

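In 5 of the 108 groups of 4 libraries examined, 1 library lay far from the other 3 (its gap to the nearest of them, as a share of the group's range, was above Dixon's 95% critical value), where chance gives about 5.4. *Ranbp1* was at 24.6 CPM in juvenile replicate 4 and at 30.0 to 30.8 CPM in the other juvenile libraries. *Rcc1* was at 39.7 CPM in the same library and at 28.1 to 29.8 CPM in the others. *Nup153* was at 29.4 CPM in adult replicate 2, beside 35.0 to 35.3 CPM. *Ipo13* was at 26.2 CPM in adult replicate 2, beside 14.1 to 15.98 CPM. *Tnpo1* was at 75.7 CPM in adult replicate 3, beside 69.2 to 70.0 CPM.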

How the results depend on the processing

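Of the 51 and 52 members called higher against juvenile in *c-Myc* and *c-Myc* + *R172H* osteoblasts, 46 and 46 were called higher in every setting in which they could be tested, and all had positive fold changes in each. The exceptions were *Kpna1*, *Kpna4*, *Kpna6*, *Nup62cl* and *Ranbp2*, with *Tnpo2* in the second. *Nup210* could not be tested with at least 10 counts asked for in every library. Library totals moved the members' median to 2.24 and 2.52 against juvenile, to 0.21 in *c-Myc* + *R172H* against *c-Myc*, and to -0.25 between the ages. They turned *Sec13* to 0.22, 0.25 and 0.035 in the first 3 comparisons. In *c-Myc* + *R172H* against *c-Myc* the fold change of *Nup210*, at 0 within its error, became 0.21 with library totals and 0.0054 with only the 2 groups fitted. *Nup35* turned to -0.067 in *c-Myc* + *R172H* against juvenile under the replicate block. Between the ages 2 members were called with library totals (*Nup155* and *Seh1l*) and with all groups in 1 fit (*Nup155* and *Ipo8*), and 0 without a filter or with the replicate block. Over all genes these settings called, in that order, 846 of 11345, 1094 of 13005, 977 of 16862 and 434 of 11345.

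Leaving out 1 library gave member medians of 1.38 to 1.46 and 1.39 to 1.51 against juvenile and of -0.072 to 0.012 in *c-Myc* + *R172H* against *c-Myc*. Without 1 juvenile library 51 to 52 and 53 members were called against juvenile, beside 6549 to 7098 and 6935 to 7474 of all genes. In *c-Myc* + *R172H* against *c-Myc* 0 members were called then, beside 28 to 87 of all genes. Between the ages 0 to 1 members were called, beside 284 to 885 of all genes. The 1 was *Xpo1* without adult replicate 2 (adjusted p = 0.047 by edgeR). *Nup210* ranged from -0.086 to 0.024 in *c-Myc* + *R172H* against *c-Myc*, and *Nup35* from -0.030 to 0.20 in *c-Myc* + *R172H* against juvenile. Same-numbered libraries of 2 groups deviated together with correlations from -0.05 to 0.14, and the main fits did not take the numbers as pairs. The 0.14 was between the 2 induced groups, where replicate 2 of each had high *Xist* (237 and 217 CPM). There the number went with sex, which the main fit left out. With the replicate block 52 and 53 members were called against juvenile and 0 in the other comparisons. Over all 12588 genes the block called 7684 and 7998 against juvenile. It called 326 in *c-Myc* + *R172H* against *c-Myc*, where the main fit called 59. Between the ages it called 434 of 11345 genes. With 2 libraries a group the precision is low, and the floor of 0.140 to 0.411 CPM limits *Nup62cl* and *Nup210l*. The causes of these changes were not tested.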
